A study of Mus musculus and Homo sapiens with 17 samples.

Results

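The genes described here encode the mitochondrial respiratory chain and the ATP synthase, together with the RNAs of the mitochondrial genome. Members were taken by name: every gene whose symbol starts with mt-, Nduf, Uqcr, Atp5 or Cox followed by a digit, and Sdha, Sdhb, Sdhc, Sdhd, Cycs and Cyc1, with the same patterns in upper case for the human cells. Pseudogenes were left out by name, and a summed count of at least 100 over all libraries of a species was required. In the mouse libraries 131 of 54532 named features were kept and 16 further name matches fell below the summed count. In the human cells 132 of 58735 were kept and 19 fell below it. All kept members also passed the filter on low counts and were tested. The 131 mouse members are 13 mitochondrial mRNAs, 2 mitochondrial rRNAs, 11 mitochondrial tRNA genes and 105 nuclear members. By name, 88 of these 105 were classed as subunits or cytochrome c and 17 as assembly factors. Kept by its name among the 88 is Ndufb4c, which is annotated as a processed pseudogene. The 132 human members are 13 mitochondrial mRNAs, 2 rRNAs, 12 tRNA genes, 102 nuclear genes and 3 antisense or divergent transcripts whose names share the patterns. The human names MT-ATP6 and MT-ATP8 end in P and a digit but are the mitochondrial genes themselves, and they were kept.

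The respiratory chain passes electrons from NADH (complex I) and succinate (complex II) through complex III and cytochrome c to oxygen at complex IV, and the proton gradient built on the way drives the ATP synthase. All complexes except complex II join subunits made from the mitochondrial genome to a larger number made from nuclear genes. The mitochondrial genome is transcribed as long RNAs from both strands, which are then cut at the tRNAs that lie between the other genes. The chain is abundant in the muscle and fat that lie under the skin, and several complex IV subunits have separate isoforms for muscle and for other tissues.

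Poly(A)-selected, stranded RNA-seq was done on 11 libraries from mice of a mixed C57BL/6 and 129 background, and all 4 mouse groups, normal skin included, had received the carcinogen DMBA and the tumour promoter TPA. The groups were skin of wild-type (WT) mice (3 libraries), squamous cell carcinoma (SCC) of WT mice (3 libraries), papilloma of mice labelled knockout (KO) for the phosphatase gene Dusp1 (3 libraries) and SCC of mice labelled Dusp1 KO (2 libraries). No papilloma of WT mice and no skin of KO mice was analysed here. RNA came from whole tissue sections, so these libraries hold all cells of the section although the labels name keratinocytes. In such bulk samples, fewer cells of a type and less RNA per cell cannot be told apart. The sources used here do not say how the mouse allele was made, at which doses or at which age. Another 6 libraries came from A431, a human epidermoid carcinoma line, carrying Cas9 guides against DUSP1 (3 libraries) or against Tomato, a fluorescent protein gene, as the control (3 libraries). For these, 100000 cells were injected intradermally into mice, grown for 3 weeks and cleared of mouse cells. The submitters' names for the DUSP1 KO replicates 2 and 3 end alike and that of replicate 1 differs, with no meaning given.

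Total counts per library were 34378300 to 47883625 in mouse and 41183478 to 53456450 in A431. The Dusp1 transcript was not lower in the mouse libraries labelled KO, at 109 to 129 CPM (counts scaled to library size) in papilloma and 139 to 174 in SCC, against 66.6 to 83.7 in WT SCC and 52.4 to 109 in WT skin. This transcript level alone does not check the genotype, since the deleted part is not given, and the mouse groups are called labelled KO throughout. DUSP1 in A431 was 71.0 to 77.1 CPM with the DUSP1 guide and 467 to 485 CPM in the control. The spread among mouse replicates was wide, with a common biological coefficient of variation of 36.6%, against 6.11% in A431. Summed counts of Y-linked genes were 4779 in labelled KO SCC replicate 2 and 0 in replicate 1, so the pair differs in sex, and 6624 and 9552 in WT skin replicates 1 and 2, against at most 7 in each other mouse library.

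Several of the changed transcripts map to small genes on the minus strand of the mitochondrial genome, which carries mt-Nd6 and a few tRNA genes. Of these, 4 are shown because each was called in at least 1 mouse comparison and its human counterpart was called in A431. They are given 5′ to 3′ as encoded, in GENCODE's mouse annotation on GRCm38, with the anticodon in capitals. They carry asparagine, cysteine, tyrosine and proline.
mt-Tn, chrM:5089-5159, minus strand: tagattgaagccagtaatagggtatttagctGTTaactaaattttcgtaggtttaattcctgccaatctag
mt-Tc, chrM:5192-5257, minus strand: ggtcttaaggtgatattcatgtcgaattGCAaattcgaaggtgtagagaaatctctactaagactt
mt-Ty, chrM:5260-5326, minus strand: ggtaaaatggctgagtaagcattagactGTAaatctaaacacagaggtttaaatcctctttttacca
mt-Tp, chrM:15356-15422, minus strand: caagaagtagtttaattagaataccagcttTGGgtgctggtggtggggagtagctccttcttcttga
Mature tRNAs carry no poly(A) tail, so reads counted at these genes after poly(A) selection do not measure mature tRNA. The sources used here do not state whether counting used the strand, and a gene and the transcript opposite to it cannot be told apart.

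For 2 of the 5 nuclear members called higher in labelled KO SCC, the 250 bases before the start site hold a motif of a factor known to act on respiratory chain genes. They are shown for that reason, from RefSeq on GRCm38.p6, 5′ to 3′ on the gene's strand, with the motif in capitals (the NRF1 motif in Cycs and the ETS motif in Ndufb6, both on the opposite strand).
Cycs, chr6:50566570-50566819, minus strand: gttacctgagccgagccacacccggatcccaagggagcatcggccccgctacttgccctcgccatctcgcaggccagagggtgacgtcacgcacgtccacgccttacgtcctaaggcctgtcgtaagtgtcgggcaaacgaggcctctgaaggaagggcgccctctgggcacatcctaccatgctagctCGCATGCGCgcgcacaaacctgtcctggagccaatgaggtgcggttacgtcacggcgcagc
Ndufb6, chr4:40279422-40279671, minus strand: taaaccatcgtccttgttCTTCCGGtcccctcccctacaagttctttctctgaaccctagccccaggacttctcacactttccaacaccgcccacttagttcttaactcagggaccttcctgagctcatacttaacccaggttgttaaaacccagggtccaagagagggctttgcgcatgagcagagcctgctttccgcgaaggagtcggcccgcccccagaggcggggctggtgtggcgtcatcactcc
The windows of Ndufa4 and Atp5g1 hold none of the NRF1, ETS and YY1 motifs, and Uqcrc2 had no entry. RefSeq promoters were matched for 83 of the 105 nuclear members (89 start sites), and 27025 genes have a window of the same length. The NRF1 motif GCGCANGCG, searched on both strands, was found in 16 of the 83 members (19.3%) and in 5.86% of all genes. The ETS motif CCGGAAG, bound by GABPA among others, was found in 17 members (20.5%) and in 7.83% of all genes. The shares were 42.2% and 35.4% for the SP1 motif GGGCGG and 3.61% and 1.29% for the YY1 motif AANATGGCG, and no overlap between these motifs was removed. A match says only that these letters stand in the window.

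Per kilobase of exon, the most abundant member in WT SCC was mt-Co1, which encodes the catalytic subunit of complex IV, at 6383 ± 1050.4 CPM per kilobase (SD, n = 3). It was followed by mt-Cytb (3952 ± 763), mt-Nd1 (3465 ± 660.1), mt-Nd4 (1516 ± 297), mt-Nd2 (1359 ± 202) and mt-Nd6 (1290.3 ± 197). The spreads of mt-Cytb and mt-Nd1 overlap, and the last 3 of these lie within each other's spread. In labelled KO SCC mt-Nd1 (7993 ± 200) lay above mt-Cytb (6857 ± 174). The highest nuclear members were the complex IV subunits Cox6b1 (535 ± 69.6), Cox8a (463 ± 33.8) and Cox6a1 (365 ± 22.5), followed by Ndufa4 (335 ± 72.3), whose spread overlaps that of Cox6a1. The spreads of Cox6b1 and Cox8a overlap too. The length used is all annotated exon bases of a gene, 708 for Cox6b1 and 4237 for Atp5b, so the order depends on the annotation. In labelled KO SCC the mean level of Ndufa4 was 1288 ± 401 CPM per kilobase (n = 2), above that of Cox6b1 at 766 ± 218, with spreads that overlap.

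Levels of some mitochondrial mRNAs are uncertain because the nuclear genome holds near-identical copies. Of the 13 mouse mitochondrial mRNAs, 7 have a nuclear pseudogene copy of at least 97% identity over at least 100 bases. The copies on chromosome 1 held 48.7% of the counts of mt-Co2 and its copy Gm28661 together, 48.0% for mt-Atp6 and Gm10925, 35.9% for mt-Nd4l and Gm10222, 35.3% for mt-Co3 and Gm28437 and 21.0% for mt-Nd3 and Gm28438. The copies of mt-Co1 and mt-Nd4 held under 1% of the counts. Of the 105 nuclear members, 21 have a copy this similar, either a pseudogene or another member. For 8 of them the copies held at least 10% of the counts of both, among them Atp5g1 with Gm10039 (25.2%). These 8 include Ndufb4c and Ndufs6b, whose copies are the protein-coding members Ndufb4 (96.4%) and Ndufs6 (98.6%). None of Ndufa4, Ndufb6 and Uqcrc2 has such a copy, and those of Cycs held under 1% of the counts. Mean shares of mitochondrial mRNA counts in WT SCC were 0.606% for mt-Co2, 0.326% for mt-Atp6 and 0.253% for mt-Co3. In the A431 control those of MT-CO2, MT-ATP6 and MT-CO3 were 9.52, 8.51 and 12.98%. Counted with their copies, these mouse genes were at 254, 144 and 93.5 CPM in WT SCC, where all 13 mRNAs summed to 23133 CPM. Adding the copies did not close this gap, and its cause was not tested. The rank, shares, missing calls and sums of these genes rest on such low counts.

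The first comparison asks how SCC of mice labelled Dusp1 KO differs from SCC of WT mice. Of these libraries only labelled KO SCC replicate 2 held Y-linked counts, and sex was not modelled. In labelled KO SCC, 5 of the 13 mitochondrial mRNAs (all of complex I), both rRNAs and 4 of the 11 mitochondrial tRNA genes were called higher, and among nuclear members Ndufa4 rose most. In all, 16 of the 131 members were called higher (12.2%) and 0 lower. Called here means an adjusted p under 0.05 in edgeR's quasi-likelihood test over all 22371 mouse genes tested. Of all genes tested, 4.48% were called higher and 3.38% lower. At an unadjusted p under 0.05 the counts were 46 higher and 5 lower, and DESeq2 called 35 higher and 1 lower (Cox7a2l). Leaving out single libraries gave 6 to 11 higher: 11 without WT SCC replicate 1, 6 without replicate 2, 8 without replicate 3, 7 without labelled KO SCC replicate 1 and 11 without replicate 2. The median log2 fold change was 0.79 for the 13 mitochondrial mRNAs and 0.27 for the 105 nuclear members, against -0.0067 for all genes tested.

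**Figure D1:**
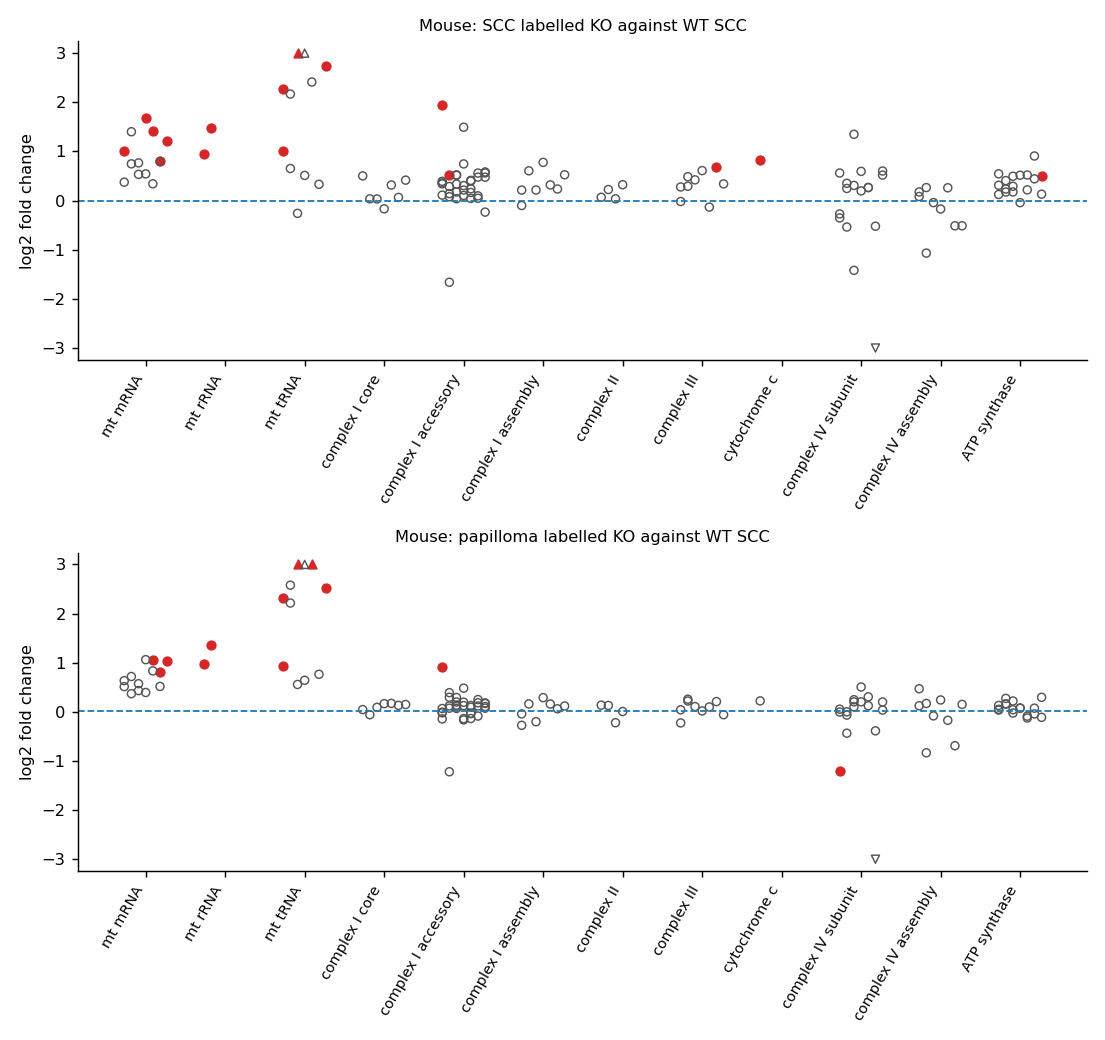
Log2 fold change of each mouse member, by role, in labelled KO SCC (top) and labelled KO papilloma (bottom) against WT SCC. Filled red points passed the adjusted p threshold and open points did not, triangles lie beyond the axis limit of 3, and the dashed line is the median of all genes tested. All 13 mitochondrial mRNAs lie above 0 in the top panel, and the called points gather among the mitochondrial RNAs.

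All 13 mitochondrial mRNAs had a positive fold change, and for 12 of them both labelled KO SCC libraries lay above all 3 WT SCC libraries. Of all genes tested, 22.9% lay apart in this direction. The exception was mt-Atp6, which encodes a proton channel subunit of the ATP synthase (log2 fold change 0.38, SE 0.35, adjusted p = 0.557). Counted together with its nuclear copy Gm10925, it was at 168, 145 and 118 CPM in WT SCC and 204 and 222 CPM in labelled KO SCC, groups that lay apart. Called members were the complex I subunits mt-Nd1, mt-Nd2, mt-Nd4l, mt-Nd5 and mt-Nd6.

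In WT SCC mt-Nd1, a core subunit of the membrane arm of complex I (GRCm38 chrM:2751-3707), was at 3990.4, 3219.9 and 2738 CPM in replicates 1 to 3, the order used throughout. In labelled KO SCC it was at 7515 and 7785 CPM. The groups lay apart, and the rise was 2.31-fold (log2 fold change 1.21, SE 0.21, adjusted p = 0.00805). The call was lost when WT SCC replicate 2 or labelled KO SCC replicate 1 was left out.

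For mt-Nd5, another membrane-arm subunit (chrM:11742-13565), WT SCC had 1059, 953 and 904 CPM and labelled KO SCC had 2355 and 2855 CPM. The labelled KO libraries were the higher ones, 2.68-fold on average (log2 fold change 1.42, SE 0.25, adjusted p = 0.00783), and the call was lost without labelled KO SCC replicate 2. The level of mt-Nd2 was 1638, 1366 and 1227 CPM in WT SCC and 2815 and 2846 CPM in labelled KO SCC (log2 fold change 1.005, SE 0.21, adjusted p = 0.0164). This call did not hold when WT SCC replicate 2 or 3 or either labelled KO SCC replicate was left out.

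The only mRNA of the minus strand, mt-Nd6, was at 788, 609 and 612 CPM in WT SCC and 1013 and 1334 CPM in labelled KO SCC (log2 fold change 0.81, SE 0.22, adjusted p = 0.049). It overlaps the end of mt-Nd5 on the other strand. The low mt-Nd4l, at 2.67, 2.68 and 2.21 against 6.98 and 9.09 CPM, was also called (log2 fold change 1.67, SE 0.37, adjusted p = 0.0212), and the counts of its nuclear copy were not included in it. Together with that copy, its level was 4.85, 4.47 and 3.66 CPM in WT SCC and 10.4 and 13.3 CPM in labelled KO SCC. Leaving out any 1 of the 5 libraries removed the calls of mt-Nd6 and of mt-Nd4l.

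The other mRNAs were not called. The catalytic complex IV subunit mt-Co1 was at 11544, 9734 and 8306 CPM in WT SCC and 15817 and 17740.1 CPM in labelled KO SCC, groups that lay apart (log2 fold change 0.77, SE 0.22, adjusted p = 0.053). The complex III subunit mt-Cytb, at 5449.9, 4396 and 3717 against 7985 and 7703 CPM, likewise lay apart (log2 fold change 0.79, SE 0.23, adjusted p = 0.0601). Both passed the threshold with DESeq2, with DESeq2's size factors in edgeR and when these 2 groups were fitted alone. Log2 fold changes were 0.75 for mt-Nd3, 0.53 for mt-Nd4, 0.54 for mt-Co2, 0.34 for mt-Co3 and 1.40 for mt-Atp8, with adjusted p of 0.0919, 0.213, 0.198, 0.53 and 0.0963. Within the mitochondrial mRNAs, the share of counts at mt-Nd1 was 14.1 to 14.6% in WT SCC and 17.7 to 18.5% in labelled KO SCC. That of mt-Co1 was 42.2 to 43.0% and 38.9 to 40.4%.

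Summed over the 13 genes, mitochondrial mRNA was 27323, 22657 and 19419 CPM in WT SCC (mean 23133 ± 3973, SD, n = 3) and 40682 and 43955 CPM in labelled KO SCC (mean 42319 ± 2314, n = 2). The ratio of the means was 1.83. These CPM use library sizes scaled by edgeR's trimmed mean of M values, whose factors ranged from 0.816 to 1.24 in the mouse libraries. As a share of the raw counts at named genes, with no such scaling, mitochondrial mRNA was 2.64, 2.32 and 2.04% in WT SCC and 3.32 and 3.83% in labelled KO SCC, a ratio of 1.53 with groups that lay apart. The summed nuclear subunits were 14665, 12739 and 12592 CPM in WT SCC and 19704 and 15198 CPM in labelled KO SCC, a ratio of 1.31. As a share of raw counts the nuclear subunits overlapped, at 1.42, 1.31 and 1.32% and 1.61 and 1.32%. No test was run on these sums.

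**Figure D2:**
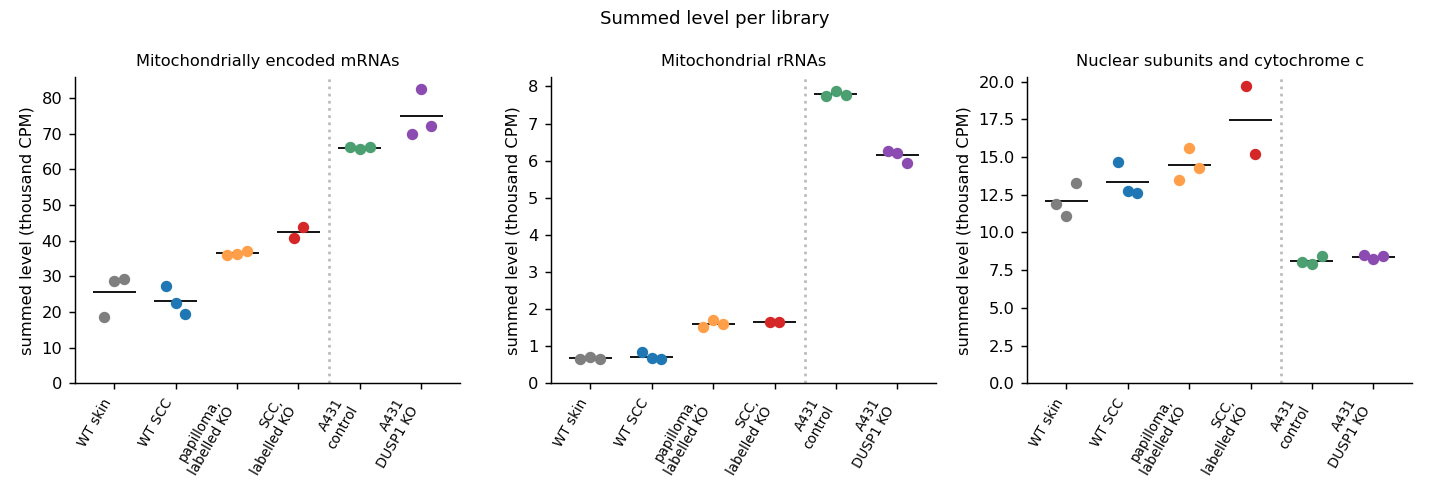
Summed CPM (axis in units of 1000) of the mitochondrial mRNAs, the mitochondrial rRNAs and the nuclear subunits with cytochrome c, 1 point per library and a black line at each group's mean. In the mouse libraries the labelled KO papilloma and SCC points lie above all WT SCC points for both kinds of mitochondrial RNA, while the A431 DUSP1 KO points lie below their controls for rRNA and above them for mRNA.

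Both mitochondrial rRNAs, which form the ribosome that translates the mitochondrial mRNAs, were called higher in labelled KO SCC. After poly(A) selection, here and in A431, reads at these genes cover only the rRNA captured and need not follow its total amount. In WT SCC the summed rRNAs were at 720 ± 98.8 CPM and the summed mRNAs at 23133 CPM. The small-subunit rRNA mt-Rnr1 (chrM:70-1024) was at 469.7, 385 and 355 CPM in WT SCC and 780.2 and 784 CPM in labelled KO SCC (log2 fold change 0.96, SE 0.15, adjusted p = 0.00541). The large-subunit rRNA mt-Rnr2 (chrM:1094-2675) was at 364, 286 and 299 CPM in WT SCC and 882 and 881 CPM in labelled KO SCC (log2 fold change 1.48, SE 0.16, adjusted p = 0.000777). For both the groups lay apart, the rise of mt-Rnr2 was 2.79-fold, and the calls held under every alternative run, each library left out in turn included.

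Of the 11 tRNA genes, 4 were called higher: mt-Tn, mt-Tc, mt-Tp and mt-Tw. Reads at mt-Tn, the first sequence above, were 3.63, 2.20 and 3.10 CPM in WT SCC and 24.7 and 14.9 CPM in labelled KO SCC (log2 fold change 2.74, SE 0.31, adjusted p = 0.00103). For mt-Tc, the next sequence, they were 6.998, 4.34 and 3.33 against 27.5 and 19.5 CPM (log2 fold change 2.27, SE 0.41, adjusted p = 0.00914). For mt-Tp they were 39.5, 37.4 and 33.1 against 65.9 and 82.3 CPM (log2 fold change 1.02, SE 0.15, adjusted p = 0.0036). In each case the labelled KO libraries lay above those of WT SCC, and mt-Tn and mt-Tp kept their calls under every alternative run. The call of mt-Tc was lost without WT SCC replicate 2 or labelled KO SCC replicate 1. The tryptophan tRNA gene mt-Tw had 0 counts in all 3 WT SCC libraries and 1 and 24 counts in the labelled KO SCC libraries, so no fold is given, and omitting any WT SCC library or labelled KO SCC replicate 2 ended the call. Of the 6 members on the minus strand (mt-Nd6 and 5 tRNA genes), 4 were called higher and all 6 had positive fold changes. Of the 20 on the other strand, 7 were called higher and 19 had positive fold changes.

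Among the 105 nuclear members, 5 were called higher (4.76%, beside 4.48% of all genes) and 0 lower, while 87 had a positive fold change. For 33 of them both labelled KO SCC libraries lay above all WT SCC libraries, and for 6 both lay below, beside 22.9% and 23.7% of all genes. The median of the nuclear members depended on single libraries: it was 0.11 with 1 call without labelled KO SCC replicate 1, and 0.42 with 5 calls without replicate 2.

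Ndufa4, on chromosome 6 (GRCm38 chr6:11900292-11907497), was named as a complex I subunit and was later placed in complex IV. It was at 578, 411 and 399 CPM in WT SCC and 2171 and 1387 CPM in labelled KO SCC. Both labelled KO libraries lay above every other mouse library, and the rise over WT SCC was 3.84-fold (log2 fold change 1.94, SE 0.24, adjusted p = 0.00155). This call held under every alternative run.

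Its paralogue Ndufa4l2, a target of hypoxia-inducible factor known to lower complex I activity, was at 159, 252 and 221 CPM in WT SCC and 83.003 and 50.1 CPM in labelled KO SCC. The groups lay apart with the labelled KO libraries below, but the difference was not called (log2 fold change -1.66, SE 0.60, adjusted p = 0.11).

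The electron carrier cytochrome c, Cycs (chr6:50562563-50566538), was at 152, 116 and 118 CPM in WT SCC and 287 and 173 CPM in labelled KO SCC (log2 fold change 0.84, SE 0.22, adjusted p = 0.0413). The complex III core protein Uqcrc2 was at 189, 169 and 161 against 312 and 246 CPM (log2 fold change 0.69, SE 0.18, adjusted p = 0.0423). Both genes had labelled KO libraries above all WT SCC libraries. The call of Cycs was lost without WT SCC replicate 2 or 3 or labelled KO SCC replicate 1, and that of Uqcrc2 without any 1 of the 5 libraries.

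The complex I accessory subunit Ndufb6 was at 52.03, 48.6 and 47.9 CPM in WT SCC and 76.5 and 65.02 CPM in labelled KO SCC (log2 fold change 0.52, SE 0.14, adjusted p = 0.0434). Atp5g1, which encodes part of the rotating ring of the ATP synthase, was at 102, 89.6 and 94.2 against 150.1 and 121 CPM (log2 fold change 0.51, SE 0.14, adjusted p = 0.0453). Both calls were lost without any 1 of the 5 libraries, and the counts of Atp5g1 share a near-identical copy.

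By role, the medians of the log2 fold change were 0.34 for 33 complex I accessory subunits (2 called higher), 0.064 for 7 core subunits (0 called by edgeR, 1 at an unadjusted p under 0.05 and 1 by DESeq2), 0.34 for 9 complex III members (1 called) and 0.31 for 17 ATP synthase members (1 called). The medians were 0.26 for 17 complex IV subunits and -0.041 for its 9 assembly members, with 0 called by edgeR in both. Ndufa4, called higher and later placed in complex IV, is counted by its name among the complex I accessory subunits and not here. At an unadjusted p under 0.05, 3 of these subunits were higher and 2 lower, and DESeq2 called 2 higher and 1 lower, while of the assembly members 2 were lower unadjusted and DESeq2 called 0. The 4 subunits of complex II, the only complex with no mitochondrially encoded subunit, had log2 fold changes of 0.067 (Sdha), 0.22 (Sdhb), 0.036 (Sdhc) and 0.32 (Sdhd) with overlapping groups, and adjusted p from 0.296 to 0.902. The complex III heme protein Cyc1 was not called either (log2 fold change 0.28, SE 0.13, adjusted p = 0.222). The members with the smallest p in the classes without a call were the complex I assembly factor Ndufaf4 (log2 fold change 0.78, SE 0.22, adjusted p = 0.0518), the core subunit Ndufs1 (log2 fold change 0.50, SE 0.17, adjusted p = 0.0977), the insertion factor Cox18 (log2 fold change -0.51, SE 0.20, adjusted p = 0.133) and Cox7a2l, known from respiratory supercomplexes (log2 fold change -0.52, SE 0.16, adjusted p = 0.0754).

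**Figure D3:**
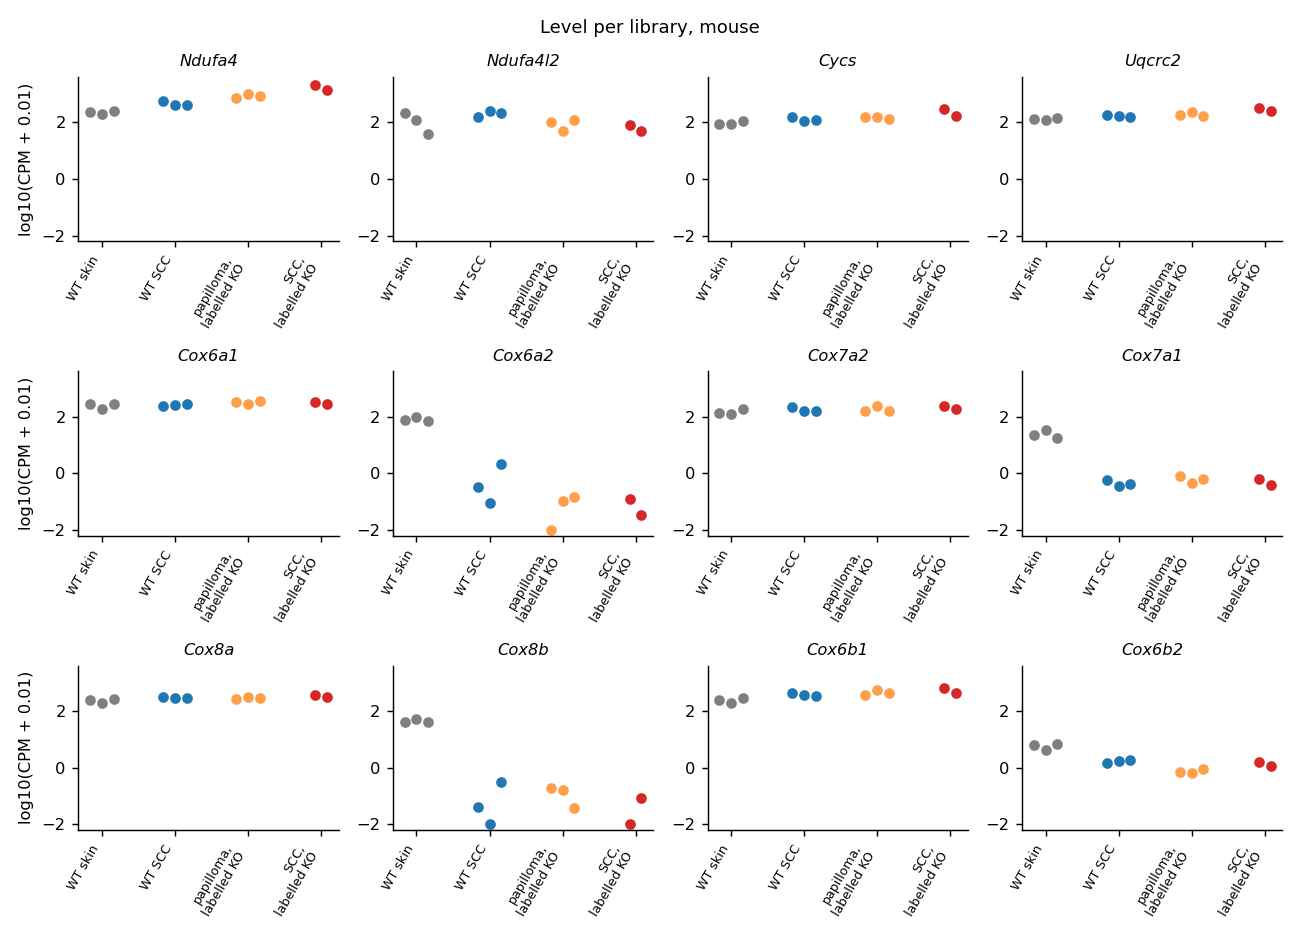
Level of 12 nuclear members in each mouse library, as log10 of CPM plus 0.01, by group. Ndufa4 is highest in the 2 labelled KO SCC libraries, and the muscle isoforms Cox6a2, Cox7a1 and Cox8b are high in WT skin and low in the tumours.

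Sums over several lists of cell type markers differed between these groups, while few single markers were called. Called were 1 of 8 keratinocyte markers higher and 1 lower, and 1 of 8 leukocyte and macrophage markers lower. Of those tested, 1 of 7 fibroblast and 1 of 11 muscle markers were called lower. Of 5 neutrophil, 7 fat and 5 endothelial markers tested, 0 were called. Summed over 8 keratinocyte markers, levels were 43636 to 45535 CPM in WT SCC and 57193 to 60806 in labelled KO SCC. The 6 neutrophil markers summed to 651 to 853 and 1216 to 1921 CPM, and the 8 leukocyte and macrophage markers to 315 to 427 and 159 to 193 CPM. The 8 fat markers summed to 1795 to 2718 and 3203 to 3425 CPM, and Ucp1, the defining gene of brown fat, was at 0 in WT SCC. Sums over 5 endothelial and 7 fibroblast markers overlapped, at 125 to 150.3 against 111 to 155 and 2347 to 4001 against 1045 to 3251 CPM. The 12 muscle markers summed to 9.81 to 167 CPM in WT SCC and 11.9 to 21.5 CPM in labelled KO SCC, where Myh4, Tnnc2 and Pvalb were at 0. The part of these differences in the results above was not tested.

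Lists of genes that serve the chain without belonging to it were read in the same comparison, where 4.48% of all genes were called higher and 3.38% lower. In lists this short, counts of 0 or 1 lie near those shares. Of 19 genes of mitochondrial DNA maintenance and transcription, such as Tfam and Polrmt, edgeR called 0 (1 higher and 4 lower at an unadjusted p under 0.05, 1 lower by DESeq2), and 8 had a positive fold change. Of 12 nuclear regulators of mitochondrial biogenesis, such as Nrf1, Gabpa and Ppargc1a, edgeR also called 0 (2 lower at an unadjusted p under 0.05, 1 lower by DESeq2), and 4 were positive. Of 19 genes of mitochondrial RNA processing and stability, 1 was called: the exoribonuclease gene Pnpt1 rose (66.1 ± 4.12 against 36.2 ± 6.45 CPM, log2 fold change 0.87, SE 0.21, adjusted p = 0.0305).

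Of 77 mitochondrial ribosomal protein genes, 2 were called higher, Mrps18b (log2 fold change 0.62, SE 0.15, adjusted p = 0.0296) and Mrpl46 (log2 fold change 0.77, SE 0.21, adjusted p = 0.0487), beside 4.48% of all genes. A positive fold change was found for 68 of the 77 and for 10924 of all 22371 genes tested, and the median of the 77 was 0.30. Of 23 genes of the tricarboxylic acid cycle and pyruvate dehydrogenase, which feeds carbon from glycolysis into that cycle, 2 were called higher and 1 lower, beside 4.48% and 3.38% of all genes. The E1 subunit genes Pdhb (144 ± 15.4 against 76.2 ± 5.21 CPM, log2 fold change 0.92, SE 0.16, adjusted p = 0.00914) and Pdha1 (log2 fold change 0.61, SE 0.16, adjusted p = 0.0415) rose. Pdk2, a kinase that inhibits the enzyme, fell (1.54 ± 0.346 against 3.59 ± 1.36 CPM, log2 fold change -1.22, SE 0.32, adjusted p = 0.044). Of 28 further assembly factors, Coa7 of complex IV was called higher (log2 fold change 0.84, SE 0.19, adjusted p = 0.0233), and edgeR called 0 of 11 uncoupling and antioxidant genes (4 higher and 2 lower at an unadjusted p under 0.05, 4 and 1 by DESeq2).

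Labelled KO papilloma was set against WT SCC, the only WT lesion analysed here, so genotype and lesion type cannot be told apart in it. This comparison shares its WT SCC libraries with the one above. Called higher were 3 of the 13 mitochondrial mRNAs, both rRNAs and 5 of the 11 tRNA genes, and of the 105 nuclear members Ndufa4 was called higher and Cox6b2 lower. Of the 131 members, 11 were called higher and 1 lower, beside 3.49% and 1.77% of all genes. Without WT SCC replicate 2 or replicate 3 the number higher was 5. The medians of the log2 fold change were 0.63 for mitochondrial mRNAs and 0.10 for nuclear members.

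In papilloma mt-Nd1 was at 6376, 6856 and 7108 CPM, above the WT SCC libraries given earlier (log2 fold change 1.03, SE 0.19, adjusted p = 0.0101). The other mRNAs called were mt-Nd5 at 2140.0, 2026 and 1896 CPM (log2 fold change 1.06, SE 0.22, adjusted p = 0.0206) and mt-Nd6 at 1075, 1251 and 1205 CPM (log2 fold change 0.81, SE 0.20, adjusted p = 0.0421). The mt-Nd1 call was lost without WT SCC replicate 2 or 3, that of mt-Nd5 without any WT SCC library or papilloma replicate 1, and that of mt-Nd6 without any 1 of the 6 libraries. The rRNAs were at 768, 794 and 817 CPM (mt-Rnr1, log2 fold change 0.98, SE 0.14, adjusted p = 0.00233) and 741, 918 and 785 CPM (mt-Rnr2, log2 fold change 1.37, SE 0.15, adjusted p = 0.000449). Both kept their calls under every alternative run.

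Reads at mt-Tn were 12.4, 19.2 and 19.8 CPM in papilloma (log2 fold change 2.53, SE 0.29, adjusted p = 0.000594) and those at mt-Tc were 11.98, 35.2 and 25.5 CPM (log2 fold change 2.31, SE 0.38, adjusted p = 0.00509). Also called higher were mt-Tp (0.94, adjusted p = 0.00252), the leucine tRNA gene mt-Tl1 (3.22, adjusted p = 0.0238; lost without WT SCC replicate 2 or 3 or papilloma replicate 3) and mt-Tw, with 27, 44 and 47 counts against 0 in WT SCC. The mt-Tw call was lost without any 1 WT SCC library.

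Ndufa4 was at 711, 1022 and 884 CPM in papilloma, between WT SCC and labelled KO SCC and apart from the former (1.89-fold, log2 fold change 0.91, SE 0.22, adjusted p = 0.0339). The call was lost without WT SCC replicate 2 or 3 or papilloma replicate 2 or 3. Cox6b2, a complex IV subunit isoform best known from testis, was the 1 member called lower: 1.45, 1.67 and 1.89 CPM in WT SCC and 0.691, 0.608 and 0.865 CPM in papilloma (log2 fold change -1.21, SE 0.29, adjusted p = 0.0361). That call did not survive leaving out any 1 of the 6 libraries.

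The keratinocyte markers summed to 48546 to 76271 CPM in papilloma, the neutrophil markers to 1177 to 3366 and the leukocyte and macrophage markers to 145 to 246. Against WT SCC, 2 of 8 keratinocyte markers were called higher, 1 of 8 leukocyte and macrophage markers lower and 0 of 5 neutrophil markers in either direction. Of 11 muscle markers tested, 2 were called lower. Of 7 fat, 7 fibroblast, 5 endothelial and 4 melanocyte markers tested, 0 were called. The part of these markers' cell types in the results was not tested. Of the 7 lists around the chain, 1 gene was called with edgeR, the complex I assembly factor Acad9 (log2 fold change 0.61, SE 0.14, adjusted p = 0.0252). Of all genes tested, edgeR called 3.49% higher and 1.77% lower. In these lists DESeq2 called 5 higher and 2 lower.

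Set directly against each other, labelled KO SCC and labelled KO papilloma did not differ in any member at the threshold. With edgeR 0 members were called in either direction, beside 0.0492% and 0.237% of all genes. At an unadjusted p under 0.05 there were 18 higher and 2 lower in SCC, and DESeq2 called Ndufa4 higher and Cox18 lower. The smallest adjusted p belonged to Ndufa4 (log2 fold change 1.03, SE 0.24, adjusted p = 0.12), with SCC libraries above those of papilloma. The medians were 0.19 for mitochondrial mRNAs and 0.22 for nuclear members. Summed mitochondrial mRNA was 36081, 36321 and 37212 CPM in papilloma, below the labelled KO SCC values given above, while the summed rRNAs overlapped. As a share of raw counts the groups overlapped for mitochondrial mRNA too, at 3.24, 3.37 and 3.46% in papilloma.

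WT SCC was compared with WT skin to ask how the members change with carcinoma when the genotype is held. Sex was not held: Y-linked counts were 6624, 9552 and 7 in WT skin and 0 in each WT SCC library. Sex was not modelled, and its part in these differences cannot be told apart from that of the tissue. The muscle isoforms of complex IV fell steeply and Ndufa4 rose, while the mitochondrial mRNAs showed 1 call. Of the 131 members, 6 were called higher (4.58%) and 14 lower (10.7%), beside 16.9% and 23.6% of all genes. Leaving out single libraries gave 1 to 12 higher and 10 to 16 lower. The number higher was 3 without skin replicate 1, 1 without skin replicate 2, 12 without skin replicate 3 and 2 without any 1 WT SCC library.

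Cox8b, the muscle isoform of the smallest complex IV subunit, was at 40.6, 52.2 and 39.6 CPM in WT skin and 0.0290, 0 and 0.303 CPM in WT SCC (log2 fold change -8.59, SE 0.76, adjusted p = 2.18e-05). The muscle isoform Cox7a1 was at 22.4, 34.5 and 18.01 CPM in skin and 0.552, 0.350 and 0.419 CPM in SCC, 56.97-fold lower (log2 fold change -5.83, SE 0.38, adjusted p = 4.81e-06). Cox6a2, also of muscle, was at 75.5, 101 and 67.97 against 0.319, 0.0824 and 2.10 CPM (log2 fold change -6.60, SE 0.82, adjusted p = 0.000137). The groups lay far apart for each of these.

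Their widely expressed counterparts Cox8a, Cox7a2 and Cox6a1 were not called, with log2 fold changes of 0.29, 0.25 and 0.056 and adjusted p of 0.133, 0.396 and 0.816. The 12 skeletal muscle markers, such as Acta1 and Ckm, summed to 7761 to 9164 CPM in WT skin and 9.81 to 167 in WT SCC, where Tnnc2 was at 0. The part of muscle in these falls was not tested. Keratinocyte markers summed to 10631 to 20451 CPM in skin against 43636 to 45535 in SCC, with 6 of 8 called higher and 1 lower. Neutrophil markers (2 of 5 called higher) summed to 73.7 to 646 and 651 to 853 CPM. Melanocyte markers (2 of 4 called lower) summed to 28.3 to 274 and 23.1 to 30.4 CPM. Fibroblast markers summed to 4781 to 36429.9 CPM in skin and 2347 to 4001 in SCC, with 7 of 7 called lower in SCC. Leukocyte and macrophage markers (5 of 8 called lower) summed to 508 to 1153 and 315 to 427 CPM, and endothelial markers (3 of 5 called lower) to 213 to 246 and 125 to 150.3 CPM. The sums of the fat markers overlapped, at 1611 to 2207 and 1795 to 2718 CPM, while 6 of the 7 tested were called lower and 1 higher. The part of these cell types in the results was not tested either.

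The complex II subunits Sdha, at 173, 187 and 201 CPM in skin and 131, 124 and 132 in SCC (log2 fold change -0.53, SE 0.11, adjusted p = 0.00305), and Sdhb, at 133, 125 and 164 against 107, 89.9 and 89.6 CPM (log2 fold change -0.56, SE 0.15, adjusted p = 0.0127), both fell with groups that lay apart. The call of Sdhb was lost without WT SCC replicate 2. Sdhc and Sdhd were not called (-0.20 and -0.15, adjusted p = 0.156 and 0.485). Also lower were Cox6b2 (log2 fold change -1.81, SE 0.28, adjusted p = 0.000584), the complex I assembly factor Ndufaf5 (log2 fold change -0.65, SE 0.18, adjusted p = 0.014) and the core subunit Ndufs7 (log2 fold change -0.42, SE 0.12, adjusted p = 0.0168). Ndufaf5 lost its call without WT SCC replicate 2, and Ndufs7 without WT SCC replicate 1 or 3.

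Ndufa4 was at 241, 206 and 245 CPM in skin and lay apart from WT SCC (2.01-fold higher in SCC, log2 fold change 1.01, SE 0.22, adjusted p = 0.00402), and this call held under every alternative run. The other nuclear members called higher were Cox6b1 (0.63, adjusted p = 0.04), the assembly factor Ndufaf4 (0.60, adjusted p = 0.0314), the acyl carrier protein Ndufab1 (0.40, adjusted p = 0.0254) and Atp5g3 (0.35, adjusted p = 0.0292). Cox6b1 and Atp5g3 lost their calls without skin replicate 1 or 2 or any 1 WT SCC library, Ndufaf4 without skin replicate 1 or 2 or WT SCC replicate 1 or 2, and Ndufab1, which shares counts with near-identical copies, without skin replicate 2 or WT SCC replicate 1 or 3. The median of all genes was itself below 0 in this comparison, at -0.16, and that of the nuclear members was 0.10.

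Of the mitochondrial mRNAs 1 was called, mt-Nd6, at 768, 1151 and 1233 CPM in skin against the WT SCC levels given above (log2 fold change -0.65, SE 0.20, adjusted p = 0.0246). The groups overlapped, and leaving out skin replicate 2 or 3 or WT SCC replicate 2 or 3 removed the call. The median of the 13 was -0.11, and the rRNAs were not called (0.23 and -0.088, adjusted p = 0.198 and 0.641). At the minus-strand tRNA genes the calls were lower in SCC, with mt-Tn at 8.81, 9.04 and 6.31 CPM in skin (log2 fold change -1.44, SE 0.28, adjusted p = 0.00223) and mt-Tc at 10.4, 13.6 and 11.02 CPM (log2 fold change -1.26, SE 0.37, adjusted p = 0.0197; lost without skin replicate 2 or WT SCC replicate 2 or 3). The tyrosine tRNA gene mt-Ty had 20, 39 and 19 counts in skin and 0, 2 and 0 in SCC, and mt-Te, for glutamate, had 44, 214 and 67 against 1, 1 and 8 counts, both called lower. Of the 6 minus-strand members 5 were called lower, against 1 of 20 on the other strand (mt-Tw). There, mt-Tg was called higher at 0, 3 and 6 counts in skin and 13, 24 and 12 in SCC, a call lost without skin replicate 1 or 2 or any 1 WT SCC library.

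In the lists around the chain, 25 of 77 mitochondrial ribosomal protein genes were called higher and 1 lower in WT SCC, beside 16.9% and 23.6% of all genes. Of 19 genes of mitochondrial RNA processing, 8 were higher and 2 lower. Of the 12 regulators, 4 were higher and 3 lower: Ppargc1a, the coactivator abundant in muscle and brown fat, fell (0.127 ± 0.153 against 3.18 ± 0.229 CPM, log2 fold change -4.61, SE 0.72, adjusted p = 0.000597), and Ppard (log2 fold change 2.28, SE 0.24, adjusted p = 5.23e-05) and Myc (log2 fold change 1.42, SE 0.18, adjusted p = 0.000156) rose. Of 23 genes of the tricarboxylic acid cycle and pyruvate dehydrogenase, 4 were higher and 5 lower, the latter including Pdk2 (log2 fold change -3.14, SE 0.28, adjusted p = 2.47e-05) and Mpc1, of the mitochondrial pyruvate carrier (log2 fold change -1.79, SE 0.23, adjusted p = 0.000156).

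The A431 comparison asks how carcinoma cells with a guide against DUSP1 differ from control cells. Here several mitochondrial mRNAs rose by small amounts while both rRNAs and many tRNA genes fell. The nuclear members moved in both directions, at shares near those of all genes. Of the 132 members, 39 were called higher and 37 lower over 18090 genes tested, beside 23.1% and 24.5% of all genes. Without control replicate 3 the number lower was 23, and without DUSP1 KO replicate 2 it was 21.

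Of the 13 mitochondrial mRNAs, 9 were called higher and 1 lower. MT-ND1 was at 2973, 2705 and 2821 CPM in the control and 3888, 5008 and 4381 CPM with the DUSP1 guide, groups that lay apart (1.56-fold, log2 fold change 0.64, SE 0.065, adjusted p = 3.24e-07). MT-ND2 was at 3569, 3554 and 3557 against 5004, 5934 and 4934 CPM (log2 fold change 0.57, SE 0.054, adjusted p = 1.53e-07). Smaller rises were called for MT-ND4 (log2 fold change 0.49), MT-ND3 (0.46), MT-CYB (0.44), MT-ATP6 (0.43), MT-ND4L (0.27), MT-CO2 (0.19) and MT-ND5 (0.19), with adjusted p of at most 0.0191. The call of MT-ND5 was lost without control replicate 3 or DUSP1 KO replicate 2.

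MT-CO1 was called lower, from 19883, 20016 and 20066 CPM in the control to 15075, 16646 and 15209 CPM (log2 fold change -0.35, SE 0.038, adjusted p = 8.31e-07). Its share of the mitochondrial mRNA counts was 29.9 to 30.4% in the control and 20.1 to 21.6% in the DUSP1 KO cells. MT-CO3 and MT-ND6 were not called (0.10 and -0.14, adjusted p = 0.14 and 0.152). MT-ATP8 was at 192, 187 and 196 CPM in the control and 233, 65.03 and 46.4 CPM in the DUSP1 KO libraries. Replicate 1, whose name differs from those of replicates 2 and 3, lay above the control and the other 2 far below it, and the difference was not called (log2 fold change -0.74, SE 0.35, adjusted p = 0.0935), although it was when replicate 1 was left out. MT-ATP6, which overlaps MT-ATP8 on the same RNA, was at 6673, 8727 and 7436 CPM in these libraries.

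**Figure D4:**
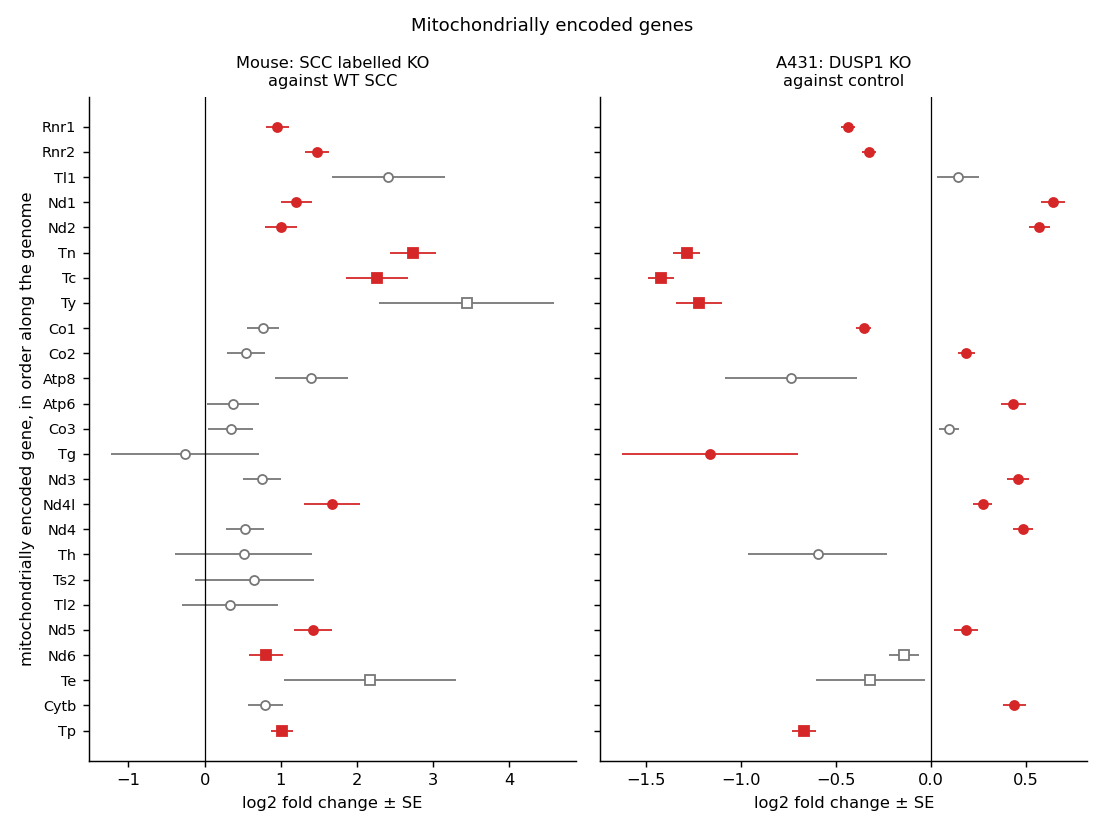
Log2 fold change with its standard error for mitochondrial genes in genome order, in mouse labelled KO SCC against WT SCC (left, without mt-Tw, which is at 0 in WT SCC) and in A431 DUSP1 KO against control (right, for the genes measured in the mouse libraries). Circles are genes of the plus strand, squares genes of the minus strand and red marks called genes; both rRNAs lie above 0 on the left and below 0 on the right.

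The rRNA MT-RNR1 was at 1437, 1443 and 1436 CPM in the control and 1045, 1085 and 1060.2 CPM in the DUSP1 KO cells (log2 fold change -0.44, SE 0.038, adjusted p = 5.53e-08). MT-RNR2 was at 6313, 6445 and 6345 against 5217, 5132 and 4887 CPM (log2 fold change -0.33, SE 0.037, adjusted p = 1.24e-06), and for both the groups lay apart with the KO cells below. Of the 12 tRNA genes, 7 were called lower and 0 higher, the latter also at an unadjusted p under 0.05 and by DESeq2. The largest falls were those of MT-TC, at 87.9, 80.5 and 97.9 against 31.9, 31.8 and 35.5 CPM (log2 fold change -1.42, SE 0.068, adjusted p = 2.24e-11), and MT-TT (-1.42, adjusted p = 0.000174). The other 5 were MT-TR (-1.31), MT-TN (-1.29), MT-TY (-1.22), MT-TG (-1.16) and MT-TP (-0.67). The call of MT-TR was lost without control replicate 2 or 3 or DUSP1 KO replicate 3, and that of MT-TG without any 1 library, DUSP1 KO replicate 1 excepted, and with DESeq2. All 6 members named like the minus-strand genes of mouse had negative fold changes, and 4 of them were called lower. Of the 21 on the other strand, 9 were called higher and 6 lower.

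Of the 102 nuclear members, 28 were called higher (27.5%) and 27 lower (26.5%), beside 23.1% and 24.5% of all genes. Their median log2 fold change was -0.027. The log2 fold changes ranged from -0.48 to 1.41, the highest being that of NDUFA4L2, the paralogue of NDUFA4. NDUFA4L2 was at 146, 131 and 159 CPM in the control and 373, 397 and 389 CPM in the DUSP1 KO cells, groups that lay far apart (2.66-fold, log2 fold change 1.41, SE 0.058, adjusted p = 3.33e-12). NDUFA4 itself was slightly lower, from 111, 111 and 121 to 105, 103 and 104 CPM (log2 fold change -0.14, SE 0.048, adjusted p = 0.022), which was lost without control replicate 3 or DUSP1 KO replicate 2 or 3.

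Within complex I, 5 of 7 core subunits were called higher and 1 lower. NDUFV2, which holds an iron-sulfur cluster of the NADH-oxidising part, was at 2.52, 2.36 and 1.64 CPM in the control and 3.18, 3.57 and 2.94 CPM in the DUSP1 KO cells (log2 fold change 0.57, SE 0.18, adjusted p = 0.013), which was lost without control replicate 3. The transcript NDUFV2-AS1 on its opposite strand was called higher as well (log2 fold change 0.81, SE 0.21, adjusted p = 0.0041), and the reads of such a pair cannot be told apart without strand. The core subunit called lower was NDUFS1 (log2 fold change -0.25, SE 0.047, adjusted p = 0.000305). The assembly factor NDUFAF3 rose from 13.8, 12.3 and 14.6 to 23.1, 25.6 and 26.5 CPM (log2 fold change 0.89, SE 0.078, adjusted p = 6.5e-08). Of the 32 accessory members, 7 were higher and 8 lower, the latter led by NDUFB3 (log2 fold change -0.48, SE 0.092, adjusted p = 0.000332) and NDUFA6 (log2 fold change -0.31, SE 0.071, adjusted p = 0.00164).

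In complex II, SDHD, a membrane anchor, rose from 60.5, 62.4 and 63.2 to 86.1, 79.5 and 77.6 CPM (log2 fold change 0.39, SE 0.052, adjusted p = 9.8e-06). SDHC, the other anchor, fell from 127, 130.1 and 135 to 109, 97.7 and 101 CPM (log2 fold change -0.35, SE 0.051, adjusted p = 2.23e-05). SDHB was called lower (log2 fold change -0.15, SE 0.047, adjusted p = 0.0146; lost without control replicate 1 or DUSP1 KO replicate 3) and SDHA was not called (log2 fold change -0.055, SE 0.045, adjusted p = 0.328). In complex III, UQCRC1 rose (1.35-fold, log2 fold change 0.43, SE 0.044, adjusted p = 4.37e-07), while UQCRQ (-0.35), UQCR10 (-0.33) and the iron-sulfur protein UQCRFS1 (-0.28) were lower, with adjusted p of 0.000481, 9.77e-05 and 0.000448. CYCS (log2 fold change -0.11, SE 0.049, adjusted p = 0.0686) and CYC1 (log2 fold change -0.066, SE 0.052, adjusted p = 0.314) were not called.

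**Figure D5:**
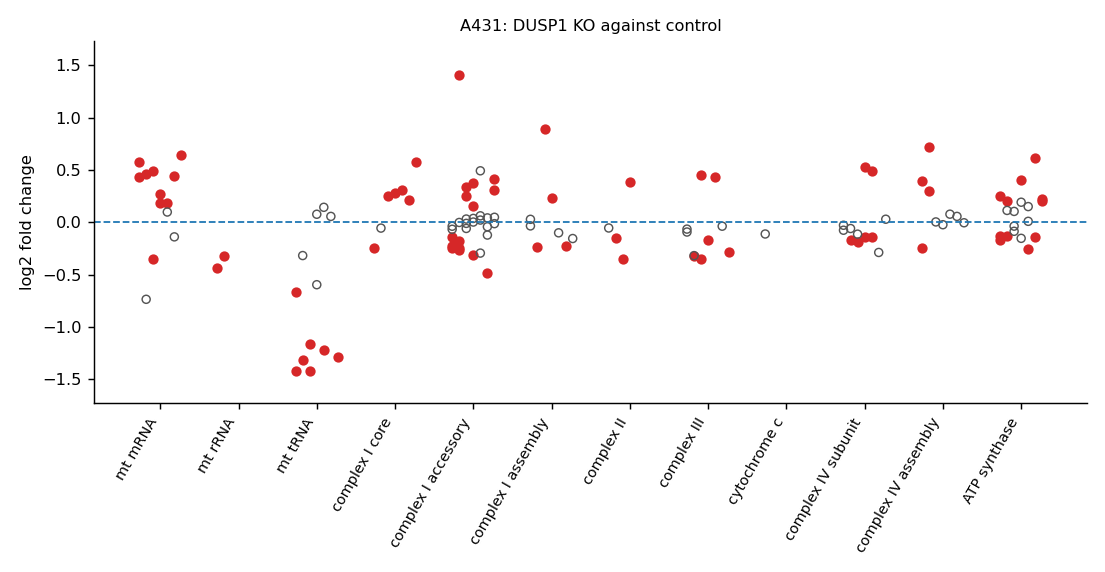
Log2 fold change of each A431 member by role, DUSP1 KO against control. Filled red points passed the adjusted p threshold, open points did not, and the dashed line is the median of all genes tested. The mitochondrial mRNAs lie mostly above 0 and the rRNAs and tRNA genes mostly below it, while the nuclear classes hold called genes on both sides.

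In complex IV, COX6A1, the widely expressed isoform, rose from 55.9, 53.7 and 61.9 to 74.8, 87.6 and 84.8 CPM (log2 fold change 0.53, SE 0.064, adjusted p = 3.31e-06) and COX8A was also called higher, with groups that overlapped (log2 fold change 0.49, SE 0.10, adjusted p = 0.00071). COX7B (-0.19, adjusted p = 0.00822) and COX6B1 (-0.14, adjusted p = 0.0358) were called lower, the former not without DUSP1 KO replicate 2 and the latter not without control replicate 1 or 3 or DUSP1 KO replicate 2. COX4I1, COX7A2, COX7A2L and COX6B2 were not called, with adjusted p from 0.106 to 0.662. Of the 9 assembly members 3 were higher, among them COX11 (log2 fold change 0.30, SE 0.054, adjusted p = 0.000235), and 1 lower. In the ATP synthase 6 of 19 members were higher and 5 lower, the former led by ATP5MG (log2 fold change 0.62, SE 0.093, adjusted p = 3.21e-05) and ATP5F1D (log2 fold change 0.41, SE 0.054, adjusted p = 8.71e-06).

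The summed nuclear subunits were 8141 ± 292 CPM in the control and 8403 ± 152 in the DUSP1 KO cells (SD, n = 3 each), with overlapping groups. As a share of raw counts they lay apart, at 0.793, 0.782 and 0.826% and 0.871, 0.829 and 0.859%. Summed mitochondrial mRNA was 66147 ± 324 and 74859.7 ± 6868 CPM, and summed rRNA was 7806 ± 72.5 and 6142 ± 169.9 CPM, and for both the groups lay apart. Keratinocyte markers summed to 75429 to 79644 CPM in the control and 67523 to 69528 with the DUSP1 guide. Of the markers of other cell types, 7 fibroblast genes summed to 127 CPM in each control library and 76.3 to 88.6 in the DUSP1 KO cells, and 12 muscle genes to 24.4 to 26.4 and 46.5 to 52.8 CPM. The 8 fat genes summed to 1.55 to 1.95 and 3.26 to 3.41 CPM, and the 5 endothelial genes to 0.874 to 1.06 and 1.16 to 1.71 CPM. For all 5 lists the groups lay apart. At 0 in both arms were MYL1 and PVALB of muscle, ADIPOQ and RETN of fat and KDR of endothelium. Of the markers tested, 5 of 8 keratinocyte and 4 of 5 fibroblast genes were called lower and 1 of each higher. Of 6 muscle genes 3 were called higher and 1 lower, and of 3 fat and 2 endothelial genes 1 each was called higher. So were 1 of 3 neutrophil and 1 of 2 melanocyte genes, while 0 of 3 leukocyte and macrophage genes were called. The part of these differences was not tested.

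Around the chain, 19 of 78 mitochondrial ribosomal protein genes were called higher and 19 lower in A431, beside 23.1% and 24.5% of all genes. Of 19 RNA processing genes 3 were higher and 8 lower, with PNPT1 among the falls (log2 fold change -0.46, SE 0.065, adjusted p = 1.64e-05). Of 18 genes of mitochondrial DNA maintenance and transcription 5 were higher, the RNA polymerase POLRMT among them (log2 fold change 0.47, SE 0.057, adjusted p = 3.48e-06), and 5 lower. Of the 12 regulators 3 were higher and 4 lower, with PPARGC1B up (log2 fold change 0.62, SE 0.084, adjusted p = 1.11e-05) and PPARGC1A down (log2 fold change -0.41, SE 0.047, adjusted p = 1.73e-06). UCP2, a carrier of the uncoupling protein family, rose (15.5 ± 1.67 against 3.72 ± 0.242 CPM, log2 fold change 2.05, SE 0.11, adjusted p = 5.73e-11), and of the 11 uncoupling and antioxidant genes it was the 1 called higher, against 6 called lower. Of 22 genes of the tricarboxylic acid cycle and pyruvate dehydrogenase 5 were higher, PDHB among them (log2 fold change 0.67, SE 0.053, adjusted p = 1.51e-08), and 9 lower. Of 30 further assembly factors 11 were higher and 8 lower, with SCO2, a copper chaperone of complex IV, among the falls (log2 fold change -0.99, SE 0.10, adjusted p = 5.49e-07).

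Side by side, 11 members were called both in labelled KO SCC against WT SCC of mouse and in A431 DUSP1 KO against control, out of 106 members measured in both species. Of all genes tested in A431, 23.1% were called higher and 24.5% lower. The share called in both systems was not counted over all genes. Of the 7 complex I mRNAs, 4 were called higher in both: mt-Nd1 (1.21 in mouse and 0.64 in A431), mt-Nd2 (1.005 and 0.57), mt-Nd4l (1.67 and 0.27) and mt-Nd5 (1.42 and 0.19). The other 7 moved in opposite directions, and their values are given in the closing section. The difference between the systems was not tested, since species, tissue and cell makeup differ along with the way Dusp1 was targeted.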

How the data were processed

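Poly(A)-selected RNA of 11 mouse and 6 A431 libraries was prepared with a stranded kit, per the labels' protocols. The deposited tables hold whole-number counts per gene name. The submitters' processing notes name HISAT2, StringTie, DESeq and the builds mm10 and hg38, without versions, and the sources used here do not give the counting rule, its strand setting or the annotation. No further sample column was left unused. Rows without a gene name held 0.115 to 0.496% of the counts in mouse and 0.190 to 0.211% in A431 and were left out.

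Differences were tested with edgeR 4.0.16 (R 4.3.3): TMM normalization, filterByExpr, quasi-likelihood tests, 2-sided, with Benjamini-Hochberg adjustment over all genes tested and a threshold of 0.05. All 4 mouse groups shared 1 fit and A431 had its own. CPM use TMM-scaled library sizes. A group mean is given with its SD, and fold changes with their SE. Labels do not say whether the replicates came from separate animals, so p-values then measure only the spread between these libraries. Totals were 34378300 to 53456450 counts per library. The script was tested on simulated data.

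Members and lists were chosen with earlier results of these data known. Named members are the mitochondrial mRNAs and rRNAs, complex II, Cycs, Cyc1, the isoform sets, the 6 largest called rises and falls of nuclear members with an average log2 CPM of at least 1 and groups apart, and the smallest p of each role. Outside the members, up to 3 genes per list were eligible by p. The tRNA genes were added with their values known. Roles follow gene names, so Ndufa4 counts as complex I. Near-identical copies were searched with BLAST 2.17.0 in GENCODE transcripts.

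Alternatives were DESeq2 1.42.0, DESeq2's size factors in edgeR, no filter on low counts, a replicate block, library sizes without mitochondrial genes, the 2 groups alone and leaving out each library in turn. Where that left labelled KO SCC with 1 library, its spread was taken from the other groups.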

Additional observations from a re-analysis of the deposited data

Results flagged for a closer look

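Members called in opposite directions in labelled KO SCC against WT SCC of mouse and in A431 DUSP1 KO against control drew attention, with every library of the one system's treated group on one side of its controls and every library of the other's on the opposite side. The difference between the systems itself was not tested. Of all genes tested, 4.48% were called higher in the mouse comparison and 24.5% lower in A431. The share called in opposite directions was not counted over all genes. Log2 fold changes in mouse and in A431 were 1.94 and -0.14 for Ndufa4, 0.52 and -0.18 for Ndufb6, 0.96 and -0.44 for mt-Rnr1 and 1.48 and -0.33 for mt-Rnr2. At tRNA genes they were 1.02 and -0.67 for mt-Tp, 2.27 and -1.42 for mt-Tc and 2.74 and -1.29 for mt-Tn. The mouse values come from whole sections of 3 against 2 libraries and the A431 values from 3 against 3 libraries of 1 cell line. The A431 call of NDUFA4 was lost without control replicate 3 or DUSP1 KO replicate 2 or 3. In mouse, the call of Ndufb6 was lost when any 1 library of the comparison was left out. That of mt-Tc was lost without WT SCC replicate 2 or labelled KO SCC replicate 1. The other mouse calls named here held under every alternative run.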

How the results depend on the processing

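Calls kept under every alternative run were 5 of 16 for labelled KO SCC against WT SCC, 5 of 12 for labelled KO papilloma against WT SCC, 10 of 20 for WT SCC against WT skin and 46 of 76 in A431. No called direction turned under any alternative. Members higher in labelled KO SCC than in WT SCC numbered 16, and 35 with DESeq2, 28 with these 2 groups alone and 8 with the replicate block, while members lower numbered 0, and 2 without the filter on low counts, 1 with DESeq2 and 2 with the groups alone. For papilloma against WT SCC, 11 were higher and DESeq2 gave 19, and 1 was lower, with 2 without the filter, 2 with DESeq2 and 2 with the groups alone. For labelled KO SCC against papilloma, from 0 in both directions, 2 were higher without the filter, and DESeq2 called 1 higher and 1 lower. For WT SCC against skin the replicate block gave 3 higher in place of 6. Leaving out single libraries gave 6 to 11 higher and 0 lower (labelled KO SCC against WT SCC), 5 to 9 and 0 to 1 (papilloma against WT SCC), 0 and 0 (labelled KO SCC against papilloma), 1 to 12 and 10 to 16 (WT SCC against skin) and 32 to 39 and 21 to 48 (A431). Libraries with the same replicate number in their titles deviated together in 2 of 13 pairs at a correlation over 0.1 (range -0.25 to 0.16). The replicate block used these title numbers. The submitters' own names number the labelled KO SCC libraries 2 and 3. By those names, labelled KO SCC replicates 1 and 2 would match WT SCC replicates 2 and 3, with correlations of 0.013 and 0.18. Deviations of the 2 labelled KO SCC libraries mirror each other, so the check cannot decide on pairing there. The replicate numbers are not taken as pairs. The median log2 fold change of all genes in WT SCC against skin was -0.16, and -0.35 without the filter. Apart from the filter and the left-out libraries, which change how many genes or samples are tested, the cause of these differences was not tested. DESeq2 gave no adjusted p for 4 members in labelled KO SCC against WT SCC and 8 in labelled KO SCC against papilloma. Depth limits members with few counts, such as mt-Tw, which had 0 counts in WT SCC.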
